A study of Mus musculus with 24 samples.

Results

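The genes that present antigen on MHC class II were examined in bone marrow of Nrf2-KO and wild-type (WT) mice after spaceflight. They were 7 genes, named by their role in this pathway with earlier results of these data known, of the 54752 genes in the RNA-seq table. *H2-Aa*, *H2-Ab1* and *H2-Eb1* encode chains of the class II molecules. *Cd74* encodes the invariant chain, *H2-DMa* and *H2-DMb1* encode the chains of the peptide exchanger H2-DM, and *Ciita* encodes the class II transactivator. Each of the 7 symbols matched 1 row of the table, and all 7 passed the filter on low values.

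Male C57BL/6 mice were studied in 4 groups of 6, with a library per mouse. WT and Nrf2-KO mice that spent 31 days in space are called FL-WT and FL-KO, and WT and Nrf2-KO mice kept on the ground in the same kind of single cages are called GC-WT and GC-KO. The flight mice were 8 weeks old when they were transported to the launch site, 3 weeks ahead of launch, and were examined 2 days after landing. Cells of the right pelvis and tibia of all 4 groups were frozen in CELLBANKER2 before RNA was isolated, so every group shares the freezing step. The Nrf2 deletion is a germline one that every tissue carries, and blood of flight and ground mice was measured in different countries, so flight cannot be told apart from the place of handling. The values are transcript abundances in TPM, which add up to the same total in each library and correct for transcript length. The table holds TPM and no read counts, so the depth of each library is unknown. Of all TPM, 5 small RNAs took between 35.2% and 59.3% per library.

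Class II molecules are pairs of an α and a β chain that carry peptides to the surface of B cells, dendritic cells and macrophages, where CD4 T cells read them. The invariant chain fills the groove of a new class II molecule and leads it to the endosome, where proteases trim it to a short peptide that H2-DM then exchanges for an antigen peptide. Ciita binds no DNA itself but is brought to class II promoters by the RFX complex on the X box, by NF-Y on the Y box (CCAAT) and by CREB, and it is needed for nearly all class II transcription. In bone marrow, cells of the B lineage are the most numerous class II-positive cells, and class II appears on them as they mature. C57BL/6 mice carry the b haplotype, which lacks a working *H2-Ea* chain, so that H2-Eb1 protein has no partner at the surface.

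Of the 7 genes, 5 lie within the MHC on chromosome 17 of GRCm38, and *Cd74* and *Ciita* lie on chromosomes 18 and 16. *H2-Ab1* (ENSMUSG00000073421.5, 34257689 to 34269419, plus strand), *H2-Aa* (ENSMUSG00000036594.14, 34282744 to 34287823, minus strand) and *H2-Eb1* (ENSMUSG00000060586.10, 34305867 to 34316674, plus strand) follow each other. *H2-DMa* (ENSMUSG00000037649.9, 34119541 to 34139101, plus strand) and *H2-DMb1* (ENSMUSG00000079547.3, 34153072 to 34160230, plus strand) lie before them. *Cd74* (ENSMUSG00000024610.14) spans 60803848 to 60812652 and *Ciita* (ENSMUSG00000022504.10) spans 10480059 to 10528418, both on the plus strand.

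Promoter windows are shown for 3 genes that Ciita switches on, *H2-Aa*, *H2-Eb1* and *H2-DMb1*, each of which holds CCAAT close to its start. RefSeq windows on GRCm38.p6, each from 250 bases before to 50 bases after a start site, were at hand for 4 of the 7 genes, *H2-Aa*, *H2-Eb1*, *H2-DMb1* and *H2-DMa*. The windows were searched on both strands for CCAAT, the core of the Y box, for CCNNGNAAC, a core of the X box, and for CTNGNAACT, which was read off these windows, so that their matches to it follow from the choice. Capitals mark the matches:
H2-Aa, chr17:34287774-34288073, minus strand: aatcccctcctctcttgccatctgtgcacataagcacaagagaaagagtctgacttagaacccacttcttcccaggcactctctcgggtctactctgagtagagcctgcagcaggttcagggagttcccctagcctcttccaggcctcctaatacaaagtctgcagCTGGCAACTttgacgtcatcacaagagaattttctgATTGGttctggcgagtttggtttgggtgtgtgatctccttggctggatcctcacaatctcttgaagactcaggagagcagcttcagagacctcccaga
H2-Eb1, chr17:34305617-34305916, plus strand: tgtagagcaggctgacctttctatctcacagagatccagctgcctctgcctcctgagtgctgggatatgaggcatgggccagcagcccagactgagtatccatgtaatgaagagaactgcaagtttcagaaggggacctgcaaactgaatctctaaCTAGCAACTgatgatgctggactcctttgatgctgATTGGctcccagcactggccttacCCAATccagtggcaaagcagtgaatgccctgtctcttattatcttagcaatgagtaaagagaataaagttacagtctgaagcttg
H2-DMb1, chr17:34152941-34153240, plus strand: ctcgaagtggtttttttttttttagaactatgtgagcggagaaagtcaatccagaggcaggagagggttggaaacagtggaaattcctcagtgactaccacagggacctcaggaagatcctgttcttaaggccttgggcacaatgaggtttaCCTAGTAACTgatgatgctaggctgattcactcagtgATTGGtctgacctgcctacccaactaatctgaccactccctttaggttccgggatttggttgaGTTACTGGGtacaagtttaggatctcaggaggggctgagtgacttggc
In the *H2-Aa* window, CTGGCAACT lies at -84 to -76 and ATTGG, the Y box read on the other strand, at -48 to -44 from the start. *H2-Eb1* has CTAGCAACT at -94 to -86, ATTGG at -59 to -55 and CCAAT at -35 to -31. *H2-DMb1* has CCTAGTAAC at -98 to -90, which overlaps CTAGTAACT at -97 to -89, followed by ATTGG at -61 to -57 and by GTTACTGGG at 3 to 11. Of 32851 promoter windows of this length, 37.4% hold CCAAT, 15.1% hold CCNNGNAAC and 4.1% hold CTNGNAACT. The *H2-Aa* and *H2-Eb1* windows hold no CCNNGNAAC. Of the 2 *H2-DMa* windows, one holds CCACGAAAC at -231 to -223 and GTTGCCTGG at -7 to 2, the other holds ATTGG at -198 to -194, and neither holds CTNGNAACT. A match is only a run of letters, and binding was not measured here.

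*Nfe2l2*, the gene of Nrf2, ranged from 17.1 to 26.1 TPM in GC-WT mice (median 21.5) and from 11.4 to 27.3 TPM in FL-WT mice (median 19.2). It ranged from 3.6 to 7.18 TPM in GC-KO mice (median 4.89) and from 2.22 to 4.31 TPM in FL-KO mice (median 3.1), so both Nrf2-KO groups lay wholly below both WT groups. The summed TPM of 8 erythroid markers was between 86910 and 244600 per library, and that of 8 neutrophil markers between 29840 and 67170. Pan-B lineage markers summed to 69.5 to 255.2 TPM and conventional dendritic cell markers to 6.02 to 15.6 TPM, with *Xcr1* at a group mean of at most 0.0267 TPM. In bulk RNA, fewer cells of a type and less RNA per cell cannot be told apart.

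The members kept the same order of level in all 24 libraries. *Cd74* was the highest, followed by *H2-Aa*, *H2-Ab1*, *H2-Eb1*, *H2-DMa*, *H2-DMb1* and *Ciita*, on the TPM scale, which is per length. The 7 genes together summed to 619 ± 71.1 TPM in GC-WT mice, 545 ± 209 TPM in FL-WT mice, 388 ± 86.5 TPM in GC-KO mice and 288 ± 49.4 TPM in the FL-KO group (SD, n = 6 each). *Cd74* made up 54.9% ± 3.43 of that sum in GC-WT and 36.0% ± 2.18 in FL-KO mice (SD, n = 6), with 50.1% in FL-WT and 43.1% in GC-KO mice. The plot of TPM by mouse shows that the members move together from mouse to mouse within a group.

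**Figure D1:**
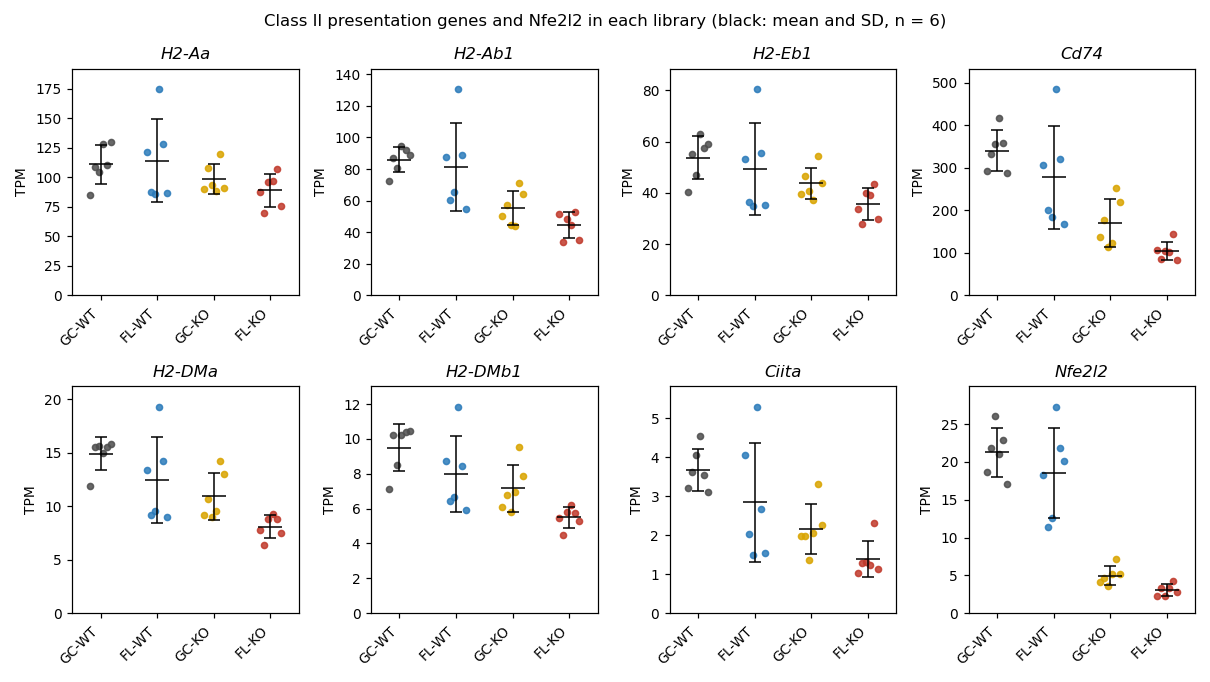
TPM of the 7 members and of Nfe2l2 in each library, with a dot per mouse and the mean and SD of the 6 mice of a group in black. Cd74 and H2-Ab1 are lower in every Nrf2-KO mouse than in every WT mouse of the same condition, H2-Aa overlaps in all groups, and FL-WT mouse 7 has the highest value of its group in every member.

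FL-WT mice spread more than the other groups. The coefficient of variation (SD over mean) of the members was between 27.2% and 53.8% in FL-WT mice, against 9.55% to 15.6% in GC-WT mice. It was 12.9% to 33.0% in GC-KO and 10.6% to 33.5% in FL-KO mice. These ranges overlap that of FL-WT mice, but each member had its highest value in FL-WT mice. FL-WT mice 3, 7 and 8 lay above their group mean in all 7 members, and FL-WT mice 5, 6 and 10 lay below it in all 7. Mouse 7 was the highest, on average 0.72 above its group mean on the log2 scale, while all tested genes were on average 0.35 above theirs in that library. In GC-KO mice, mouse 11 was the highest in all 7 members, on average 0.41 above its group mean. All tested genes were on average 0.26 above theirs in that library. Across the 24 libraries, with group means of log2(TPM + 1) subtracted, Pearson's r between 2 members was between 0.76 (*H2-DMb1* and *Ciita*) and 0.98 (*H2-Aa* and *H2-Eb1*) over 21 pairs. The points share the scaling of their library, and the median r of 5019 genes with the mean of the members was 0.62.

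Differences between groups were tested with limma on log2(TPM + 1) over all 12373 genes that exceeded 1 TPM in at least 1 library, and a gene past the test had a Benjamini-Hochberg adjusted p under 0.1. Genotypes were compared on the ground (GC-KO vs. GC-WT) and then among flight mice (FL-KO vs. FL-WT). Flight was compared with ground in WT mice (FL-WT vs. GC-WT) and separately among Nrf2-KO mice (FL-KO vs. GC-KO). A DEG also had a fold change of at least 2 on that scale, which understates the change of low genes. Over all tested genes the median log2 fold change between genotypes was -0.22 on the ground and -0.25 in flight, and with flight it was -0.24 for WT and -0.29 for Nrf2-KO mice. When TPM were rescaled between libraries by the median of ratios, these medians lay between -0.0094 and 0.0443, a shift of over 0.1. The differences below are therefore to be read beside these medians, and calls that differ under median-of-ratios scaling or with the trends of G+C content and length removed are given by member or by count.

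*Cd74*, the invariant chain, was the member that differed most between genotypes. On the ground, it ranged from 288.2 to 415.8 TPM in GC-WT mice (median 344) and from 114 to 252.5 TPM in GC-KO mice (median 157). In flight, it ranged from 167 to 485 TPM in FL-WT mice (median 254) and from 82.6 to 143 TPM in FL-KO mice (median 102). No Nrf2-KO mouse reached the lowest WT mouse of its condition. Mean levels were 340.4 ± 47.3 TPM for GC-WT, 170.3 ± 56.2 TPM for GC-KO, 277 ± 120.4 TPM for FL-WT and 104 ± 21.9 TPM for FL-KO (SD, n = 6 each). Between genotypes, *Cd74* fell on the ground by 1.05 on the log2 scale (SE 0.217, limma adjusted p = 0.000741) and in flight by 1.33 (SE 0.217, limma adjusted p = 2.02e-05), a DEG in both. It lay 0.83 and 1.08 further down than the median of all genes. Under median-of-ratios scaling it fell by 0.69 and 0.89, under quantile normalization by 1.16 and 1.07, and with the trends of G+C content and length removed by 0.72 and 0.80, each past the test.

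*H2-Ab1*, the β chain of the I-A molecule, also separated the genotypes. It ranged from 72.4 to 94.8 TPM in GC-WT mice (median 88.0) and from 44.2 to 71.3 TPM in GC-KO mice (median 53.8). In flight it ranged from 54.9 to 130.6 TPM in FL-WT mice (median 76.4) and from 33.7 to 52.7 TPM in FL-KO mice (median 46.5). The highest Nrf2-KO mouse was below the lowest WT mouse on the ground and in flight. Between genotypes, *H2-Ab1* fell on the ground by 0.65 on the log2 scale (SE 0.169, limma adjusted p = 0.00382) and in flight by 0.82 (SE 0.169, limma adjusted p = 0.000296), under the fold of a DEG. Under median-of-ratios scaling it fell by 0.29 and 0.38, and with the trends of G+C content and length removed by 0.34 and 0.30, each past the test.

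*Cd74* and *H2-Ab1* were the members with all 6 Nrf2-KO mice below all 6 WT mice, in both genotype comparisons (exact permutation test on rank sums, two-sided, p = 0.00216 for each, the smallest p that 6 against 6 allow, unadjusted). Of all tested genes, 9.15% were separated in this way on the ground and 20.6% in flight. Both genes were past the test and lower in both genotype comparisons under all 10 other settings, and no single mouse changed either call.

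*H2-Aa*, the α chain that pairs with H2-Ab1, differed little. It ranged from 85.1 to 129.6 TPM in GC-WT mice (median 109.7), from 86.3 to 175 TPM in FL-WT mice (median 105), from 88.0 to 120.0 TPM in GC-KO mice (median 92.4) and from 69.6 to 107 TPM in FL-KO mice (median 91.8). All 4 groups overlapped. Its log2 fold change between genotypes was -0.17 on the ground (95% interval -0.49 to 0.14, limma adjusted p = 0.403) and -0.32 in flight (95% interval -0.64 to -0.0076, limma adjusted p = 0.0929, past the test), but it was 0.18 and 0.12 with median-of-ratios scaling, neither past the test. The call in flight was also lost without any one of FL-WT mice 3, 7 and 8 or FL-KO mice 1, 2 and 12, with values between -0.32 (without FL-KO mouse 1) and -0.19 (without FL-WT mouse 7). With flight in WT mice its log2 fold change was 0.0005 (95% interval -0.31 to 0.32, limma adjusted p = 1), but it rose by 0.35 with median-of-ratios scaling (limma adjusted p = 0.0266) and by 0.27 with the trends of G+C content and length removed (limma adjusted p = 0.0666).

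*H2-Eb1* ranged from 40.3 to 62.9 TPM in GC-WT mice (median 56.3), from 34.9 to 80.5 TPM in FL-WT mice (median 44.98), from 37.3 to 54.4 TPM in GC-KO mice (median 42.2) and from 27.7 to 43.3 TPM in FL-KO mice (median 36.4). The groups overlapped in every comparison. Its log2 fold change between genotypes was -0.29 on the ground (SE 0.168, limma adjusted p = 0.187), and in flight it fell by 0.41 (SE 0.168, limma adjusted p = 0.0506), a call that was lost with median-of-ratios scaling, where the value was 0.0256. The call was lost as well without FL-WT mouse 7 (-0.26, limma adjusted p = 0.197), FL-WT mouse 8 (-0.36), FL-KO mouse 2 (-0.34) or FL-KO mouse 12 (-0.36).

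The chains were also compared within a library, where no scaling enters. There the ratio of *H2-Aa* to *H2-Ab1* TPM was 1.29 ± 0.105 in GC-WT and 1.42 ± 0.0941 in FL-WT mice, and 1.81 ± 0.241 for GC-KO and 2.02 ± 0.177 for FL-KO (SD, n = 6 each). In flight the genotypes did not overlap, from 1.32 to 1.58 in FL-WT and from 1.69 to 2.19 in FL-KO mice, while on the ground the lowest GC-KO mouse, at 1.43, lay within the GC-WT range of 1.18 to 1.46. The ratio of *H2-Eb1* to *H2-Ab1* was from 0.556 to 0.664 in GC-WT and from 0.685 to 0.912 in GC-KO mice. Among flight mice it ranged from 0.535 to 0.642 in FL-WT and from 0.652 to 0.882 in FL-KO mice, again with no overlap. The ratio of *Cd74* to *H2-Ab1* had a mean of 3.96 in GC-WT and 3.02 in GC-KO mice, against 3.33 in FL-WT and 2.34 in FL-KO mice. On the ground it overlapped, from 3.24 to 4.40 in GC-WT and from 2.56 to 3.54 in GC-KO mice. In flight it did not, from 2.825 to 3.71 in FL-WT and from 2.08 to 2.72 in FL-KO mice. That of *H2-DMa* to *H2-DMb1* stayed between 1.47 and 1.58 in the means of the 4 groups. *H2-Aa* has a G+C content of 46.5% and *H2-Ab1* one of 57.3%. Over all tested genes the median log2 fold change between genotypes in flight was -0.24 for genes of 46% to 48% and -0.69 for those of 56% to 58%. A ratio shows unequal change and not which gene changed, the ratios were not tested, and the part of G+C content in them was not tested.

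**Figure D2:**
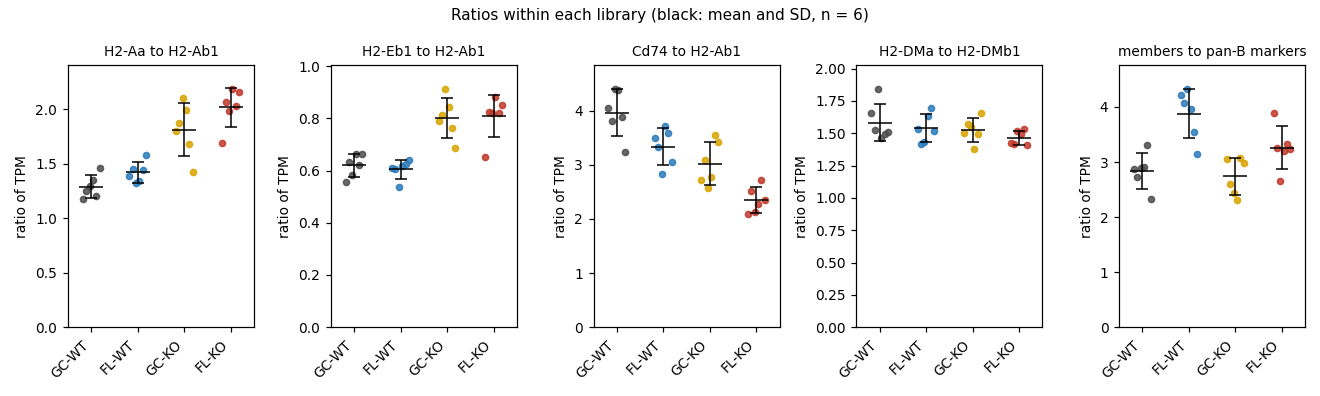
Ratios of TPM within each library, with a dot per mouse and the mean and SD of the 6 mice of a group in black, the last panel dividing the sum of the members without Ciita by the sum of the pan-B lineage markers. On average, H2-Aa and H2-Eb1 are higher relative to H2-Ab1 in Nrf2-KO mice and Cd74 is lower, with overlap on the ground for H2-Aa and Cd74. The mean of the members relative to pan-B lineage markers is higher in each flight group than in its ground group, with overlap in both genotypes.

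*H2-DMa* ranged from 11.9 to 15.8 TPM in GC-WT mice (median 15.6), from 9.01 to 19.3 TPM in FL-WT mice (median 11.5), from 8.97 to 14.2 TPM in GC-KO mice (median 10.1) and from 6.35 to 9.26 TPM in FL-KO mice (median 8.29). Between genotypes, it fell on the ground by 0.43 on the log2 scale (SE 0.151, limma adjusted p = 0.0258) and in flight by 0.53 (SE 0.151, limma adjusted p = 0.00572), and neither was past the test with median-of-ratios scaling, where the values were -0.0974 and -0.12. *H2-DMb1* ranged from 7.15 to 10.5 TPM in GC-WT mice (median 10.2), from 5.95 to 11.8 TPM in FL-WT mice (median 7.55), from 5.79 to 9.51 TPM in GC-KO mice (median 6.86) and from 4.49 to 6.21 TPM in FL-KO mice (median 5.61). Both chains overlapped between genotypes on the ground and in flight. *H2-DMb1* fell by 0.37 on the ground (SE 0.136, limma adjusted p = 0.0337) and by 0.44 in flight (SE 0.136, limma adjusted p = 0.00913), and was at -0.0493 and -0.0581 with median-of-ratios scaling. Reads of *H2-DMb1* may have been shared with its close paralog *H2-DMb2*, so its level is uncertain.

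*Ciita*, the transactivator, was the lowest member. It ranged from 3.1 to 4.54 TPM in GC-WT mice (median 3.58), from 1.49 to 5.28 TPM in FL-WT mice (median 2.35), from 1.37 to 3.3 TPM in GC-KO mice (median 2.01) and from 1.04 to 2.31 TPM in FL-KO mice (median 1.26). GC-KO mouse 11 lay within the GC-WT range, and the groups overlapped in flight as well. *Ciita* fell by 0.58 between genotypes on the ground (SE 0.183, limma adjusted p = 0.0136) and by 0.62 in flight (SE 0.183, limma adjusted p = 0.00715), whereas with the trends of G+C content and length removed it was at 0.11 on the ground (limma adjusted p = 0.433) and at 0.25 in flight (limma adjusted p = 0.0601), past the test and higher. Under median-of-ratios scaling it fell by 0.31 and 0.34, and under quantile normalization by 0.27 and 0.26, these 4 past the test and lower.

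Counted over the genotype comparisons, 5 of 7 members were past the test and lower on the ground, where 42.9% of all tested genes were past the test and lower, and 7 of 7 in flight, where 47.2% were. *Cd74* was the DEG among them in each, while 3.04% and 8.36% of all tested genes were downregulated DEGs. The median log2 fold change of the members was -0.43 on the ground and -0.53 in flight, which is 0.21 and 0.27 below the medians of all tested genes. With median-of-ratios scaling the count was 3 of 7 in each, *Cd74*, *H2-Ab1* and *Ciita*, and 27.9% and 31.2% of all tested genes were past the test and lower. The share past the test and higher was then 29.8% and 35.2%, against 3.13% and 1.91% at TPM as deposited. Without any one of GC-WT mouse 7 and GC-KO mice 1, 4 and 9, *Cd74* stayed past the test on the ground but was below the fold of a DEG, at as little as -0.94.

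**Figure D3:**
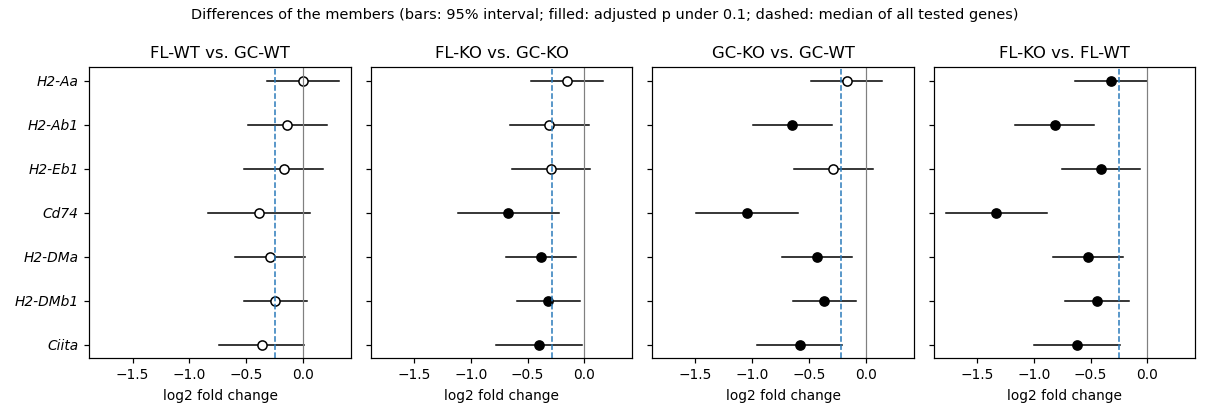
Log2 fold change of log2(TPM + 1) for each member in the 4 comparisons, with the 95% interval as a bar, a filled point at an adjusted p under 0.1, and the median of all 12373 tested genes as a dashed line. Cd74 lies furthest below the dashed line in both genotype comparisons, and for flight in WT mice no member is past the test; with median-of-ratios scaling H2-Aa and H2-Eb1 are above 0 in the genotype comparisons.

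In wild-type mice, flight gave no member past the test. Of all tested genes, 39.0% were past the test and lower in this comparison, and 0 of 7 members were, with 0 also at an unadjusted p under 0.05 in limma and in the exact test. *Cd74* had a log2 fold change of -0.39 (95% interval -0.83 to 0.0572, limma adjusted p = 0.169) and *Ciita* one of -0.36 (95% interval -0.74 to 0.012, limma adjusted p = 0.129). The other members were between -0.29 (*H2-DMa*) and 0.0005 (*H2-Aa*), and the median of the members, -0.24, was that of all tested genes. The count rested on mouse 7. Without FL-WT mouse 7, 5 of 7 members were past the test and lower, as were 58.9% of all tested genes, with *Cd74* at -0.57 (limma adjusted p = 0.0217), *Ciita* at -0.52 (limma adjusted p = 0.0125), *H2-DMa* at -0.42, *H2-DMb1* at -0.35 and *H2-Eb1* at -0.32. Without GC-WT mouse 3 the count was 2 (*H2-DMa* and *H2-DMb1*), and without FL-WT mouse 3 (*Ciita*) or FL-WT mouse 8 (*H2-DMa*) it was 1, while 44.5%, 33.0% and 44.5% of all tested genes were past the test and lower. With median-of-ratios scaling, 15.9% of all tested genes were past the test and lower and 17.4% higher, against 0.994% higher at TPM as deposited. With the trends of G+C content and length removed, 18.1% were past the test and higher, and *H2-Aa* was the 1 member among them.

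In Nrf2-KO mice, 4 of 7 members were past the test and lower in flight, where 53.1% of all tested genes were. *Cd74* fell by 0.67 on the log2 scale (SE 0.217, limma adjusted p = 0.0172), *H2-DMa* by 0.38 (SE 0.151, limma adjusted p = 0.0431), *H2-DMb1* by 0.32 (SE 0.136, limma adjusted p = 0.0595) and *Ciita* by 0.40 (SE 0.183, limma adjusted p = 0.0776). *H2-Ab1* (-0.31, limma adjusted p = 0.134), *H2-Eb1* (-0.29, limma adjusted p = 0.15) and *H2-Aa* (-0.15, limma adjusted p = 0.412) were not past the test. No member was a DEG in either flight comparison, where 0.938% of all tested genes in WT and 2.13% in Nrf2-KO mice were downregulated DEGs. *Cd74* overlapped between the groups, from 82.6 to 143 TPM in FL-KO and from 114 to 252.5 TPM in GC-KO mice (exact permutation test on rank sums, two-sided, p = 0.0152, unadjusted). The median of the members was -0.32, and that of all tested genes -0.29. With median-of-ratios scaling (21.6% of all tested genes past the test and lower) or removal of the trends of G+C content and length (14.5%), 0 of 7 members were past the test and lower in Nrf2-KO mice. Median-of-ratios scaling put 18.1% of all tested genes past the test and higher, against 0.299% higher at TPM as deposited. Under the first of these *H2-Aa* rose by 0.28 (limma adjusted p = 0.0592). Without GC-KO mouse 11, GC-KO mouse 12 or FL-KO mouse 2 the count was 1, *Cd74*, and the share of all tested genes was 36.4%, 42.3% and 40.4%. Without FL-KO mouse 11 the count was 6 and the share 57.7%.

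Whether the flight difference differed between genotypes was tested by the interaction, which was past the test for 0 of 7 members. Its log2 values, the flight difference in Nrf2-KO less that in WT mice, were between -0.28 (*Cd74*, 95% interval -0.91 to 0.35) and -0.0367 (*Ciita*, 95% interval -0.57 to 0.49), with a limma adjusted p of 1 for all 7 members and 0 at an unadjusted p under 0.05. Of all tested genes, 0.0162% were past the test and lower in the interaction. The interval of every member reached at least to -0.47 on the lower and 0.29 on the upper side.

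The genotype differences of the members grew with their G+C content, taken from the longest transcript of each gene in GENCODE M21. It was 46.5% for *H2-Aa*, 51.8% for *H2-Eb1*, 53.8% for *H2-DMb1*, 55.1% for *H2-DMa*, 55.2% for *Ciita*, 56.6% for *Cd74* and 57.3% for *H2-Ab1*. In both genotype comparisons the log2 fold changes lay in this order, except that *Cd74* lay below *H2-Ab1*. Over all tested genes, the median log2 fold change between genotypes in flight was -0.24 for genes of 46% to 48%, -0.49 for 52% to 54% and -0.69 for 56% to 58%. In that last class *H2-Ab1* was at -0.82 and *Cd74* at -1.33. On the ground the median of the 786 genes of 56% to 58% was -0.5, against -0.65 for *H2-Ab1* and -1.05 for *Cd74*. With flight in Nrf2-KO mice the median also fell, from -0.29 for genes of 46% to 48% to -0.48 for those of 56% to 58%. In that class *H2-Ab1* was at -0.31 and *Cd74* at -0.67 with flight in Nrf2-KO mice. Removing the trend of each library with G+C content and length left *Cd74* and *H2-Ab1* past the test and lower in both genotype comparisons, as 2 of 7 members each, where 21.4% of all tested genes on the ground and 22.3% in flight were past the test and lower. Past the test and higher were then 25.5% of all tested genes and 0 of 7 members on the ground, and 33.6% and 1 of 7, *Ciita*, in flight.

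**Figure D4:**
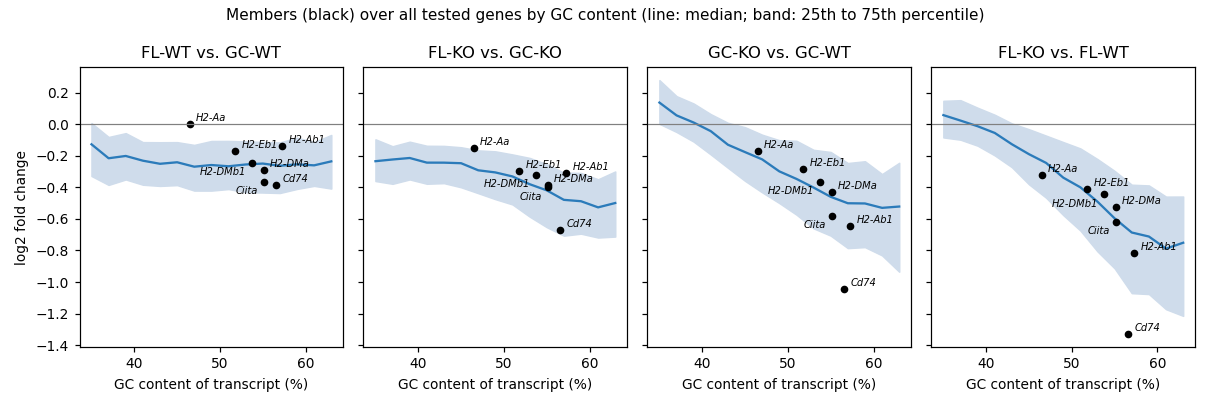
Log2 fold change against the G+C content of the longest transcript, with the 7 members as black dots, the median of all tested genes in steps of 2% as a line and their 25th to 75th percentile as a band. In both genotype comparisons the line falls with G+C content and Cd74 lies below the band, while the other 6 members lie within it. The line also falls for flight in Nrf2-KO mice, less steeply.

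**Figure D5:**
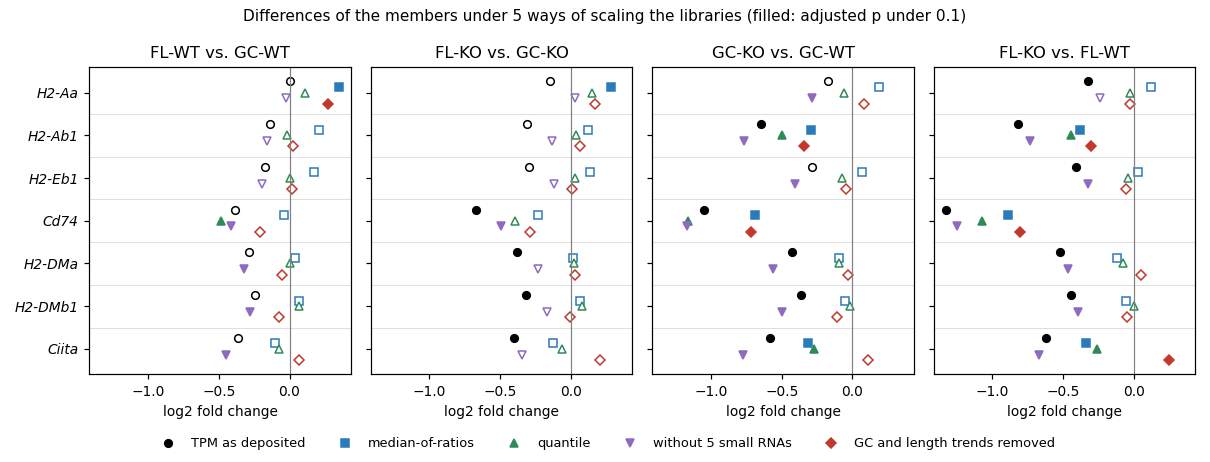
Log2 fold change of each member in the 4 comparisons at TPM as deposited and under 4 other scalings, with filled symbols at an adjusted p under 0.1. In the genotype comparisons all 5 symbols of Cd74 and of H2-Ab1 are filled and below 0, while for H2-Aa, H2-Eb1, H2-DMa, H2-DMb1 and Ciita some are open. Symbols above 0 in these comparisons are those of H2-Aa and H2-Eb1 under median-of-ratios scaling and, with the trends of G+C content and length removed, of Ciita (filled in flight), of H2-Aa on the ground and of H2-DMa in flight.

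Among the other class II chains, *H2-Ea* (*H2-Ea-ps* in GENCODE M21) was listed at 0 in every library. *H2-Eb2* had group means of 1.14 to 1.56 TPM and was past the test in no comparison. *H2-DMb2*, the other β chain of H2-DM, averaged 16.2 TPM for GC-WT, 14.1 TPM for FL-WT, 12.3 TPM for GC-KO and 10.5 TPM for FL-KO, and fell between genotypes on the ground by 0.37 (limma adjusted p = 0.0869). *H2-Oa* and *H2-Ob* encode H2-O, which restrains H2-DM in B cells. *H2-Oa* fell between genotypes in flight by 0.49 (limma adjusted p = 0.00384) and with flight in Nrf2-KO mice by 0.41 (limma adjusted p = 0.0184), and *H2-Ob* in the latter by 0.36 (limma adjusted p = 0.0931). The lysosomal reductase *Ifi30* went from 39.9 TPM in GC-WT to 14.1 TPM in FL-KO mice, and the protease *Ctsd* from 130.6 TPM to 56.4 TPM. Both were DEGs between genotypes in flight, at -1.23 and -1.22. Of the 12 chains and loading genes of this list 11 were tested, and 3 were past the test and lower with flight in WT mice, 7 with flight in Nrf2-KO mice, 6 between genotypes on the ground and 7 between genotypes in flight, with none higher. The medians of these 11 were -0.20, -0.36, -0.30 and -0.48 in the same order, which the 4 counts per list below keep. Over all tested genes, 39.0%, 53.1%, 42.9% and 47.2% were past the test and lower in that order, with medians of -0.24, -0.29, -0.22 and -0.25, and these counts per list are at TPM as deposited.

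Of the transcription factors of class II genes 11 of 12 were tested, and 7, 9, 7 and 7 were past the test and lower in these 4 comparisons, with medians of -0.36, -0.40, -0.53 and -0.52 beside -0.24, -0.29, -0.22 and -0.25 over all tested genes. *Rfx5*, the DNA-binding subunit of RFX, went from 2.18 TPM in GC-WT to 1.33 TPM in GC-KO mice and to 0.843 TPM in FL-KO mice, and fell by 0.46 and 0.47 in the genotype comparisons (limma adjusted p = 0.00822 and 0.00508). *Spi1*, which encodes PU.1 of myeloid and B cells, averaged 51.5 TPM for GC-WT, 54.6 TPM for FL-WT, 28.7 TPM for GC-KO and 20.7 TPM for FL-KO. Its log2 fold change between genotypes was -0.88 on the ground (limma adjusted p = 0.00116) and -1.296 in flight (limma adjusted p = 8.2e-06). *Irf8* fell by 1.03 between genotypes in flight and *Irf4* by 1.03 on the ground, both DEGs. Of the 7 genes that lead from interferon γ to *Ciita*, 2, 4, 5 and 5 were past the test and lower in the 4 comparisons, in the order above, and none was a DEG.

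Class I molecules show peptides of the cell itself to CD8 T cells. Of 13 presentation genes, 10 were past the test and lower between genotypes on the ground and 11 in flight, against 42.9% and 47.2% of all tested genes. The medians of the 13 were -0.61 and -0.73, and those of all tested genes -0.22 and -0.25. Tested genes of 54% to 56% G+C and a mean of at least 1 TPM had medians of -0.46 and -0.60. *H2-K1*, *H2-D1* and *Tapbp* have a G+C content of 54.3%, 55.9% and 57.1%, and *B2m* one of 41.2%. The part of G+C content in the class I differences was not tested. *H2-K1* averaged 130.6 TPM for GC-WT and 47.2 TPM for FL-KO, and *H2-D1* 208.1 TPM and 84.9 TPM. *Tapbp*, the peptide-loading chaperone tapasin, went from 34.4 TPM in GC-WT to 6.23 TPM in FL-KO mice and was a DEG in 3 of the 4 comparisons, at -1.81 between genotypes in flight. *B2m* was past the test in none of the 4 comparisons, and *Nlrc5*, the class I counterpart of *Ciita*, fell with flight in WT mice by 0.47 (limma adjusted p = 0.012) and between genotypes on the ground by 0.33 (limma adjusted p = 0.0476). Of class I genes, 2 in WT and 8 in Nrf2-KO mice were past the test and lower with flight, against 39.0% and 53.1% of all tested genes. Of the 3 costimulation genes, 0, 1, 0 and 1 were, the called gene being *Cd40*, named after its values were seen.

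Cells of the B lineage carry class II, and their markers were counted in the same comparisons. Pan-B lineage markers were past the test and lower as 8 of 8 in each flight comparison and 7 of 8 in each genotype comparison. Of all tested genes, 39.0% and 53.1% were past the test and lower with flight in WT and Nrf2-KO mice. Between genotypes, 42.9% were on the ground and 47.2% in flight. With flight in WT mice, 0 of 7 members were past the test and lower. That count was 5 without FL-WT mouse 7 (58.9% of all tested genes) and 4 without the 5 small RNAs (54.9%). The members and these markers were not tested against each other. Their summed TPM ranged from 178 to 255.2 for GC-WT, from 89.4 to 227 for FL-WT, from 109 to 169.7 for GC-KO and from 69.5 to 114 for FL-KO. *Cd79a*, a chain of the B cell receptor complex, averaged 75.8, 50.9, 41.5 and 22.1 TPM in these groups. Progenitor B markers were lower as 8 of 8 in both flight comparisons, 5 of 8 between genotypes on the ground and 3 of 8 in flight, and mature B markers as 1, 1, 4 and 4 of 8. Set against the pan-B lineage sum in the same library, the members without *Ciita* stood at 2.84 ± 0.321 for GC-WT, 3.88 ± 0.448 for FL-WT, 2.74 ± 0.335 for GC-KO and 3.26 ± 0.395 for FL-KO (SD, n = 6 each). GC-WT and GC-KO mice overlapped in this ratio, from 2.32 to 3.31 and from 2.31 to 3.07. Each flight group overlapped its ground group, with FL-WT from 3.15 to 4.325 and FL-KO from 2.655 to 3.895. The part of B-lineage RNA in the members' differences was not tested.

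Dendritic cells and macrophages also carry class II. In the 4 comparisons, in the order above, 39.0%, 53.1%, 42.9% and 47.2% of all tested genes were past the test and lower. Of 8 conventional dendritic cell markers 6 were tested, and 3, 2, 3 and 3 were past the test and lower. The ratio of the members without *Ciita* to their sum was 45.7 ± 3.47 for GC-WT, 51.9 ± 8.62 for FL-WT, 38.5 ± 4.29 for GC-KO and 41.6 ± 6.18 for FL-KO (SD, n = 6 each). Macrophage markers were lower as 3, 6, 0 and 4 of 8, plasmacytoid dendritic cell markers as 1, 4, 1 and 0 of 6 (with 1 higher in each genotype comparison), and plasma cell markers as 2, 2, 1 and 2 of 4 tested. Monocyte markers were lower as 0, 2, 4 and 4 of 6 (with 1 higher between genotypes on the ground), with *Csf1r*, the receptor of monocytes and macrophages, from 15.97 TPM in GC-WT to 2.77 TPM in FL-KO mice and a fall of 1.74 between genotypes in flight (limma adjusted p = 4.18e-06). T and NK cell markers were lower as 1, 1, 2 and 5 of 8. Among neutrophil markers 0, 2, 4 and 5 of 8 were lower and 4, 1, 2 and 0 higher, and among erythroid markers 3, 4, 2 and 2 of 8 were lower and 0, 0, 3 and 2 higher. Their part in the members' differences was not tested.

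The 8 genes most like the members were sought among the 5019 genes that averaged 5 TPM or more, by Pearson's r over the 24 libraries with the mean of the standardised members after group means were subtracted. They were *H2-DMb2* (r = 0.93), *Tbc1d10c* (0.93), *Cd37* (0.93), *Grk6* (0.93), *Swap70* (0.93), *Cyb561a3* (0.92), *Ier5* (0.92) and *Rab4b* (0.92). Markers of the same list differed widely. Of the pan-B lineage markers, *Cd79a* had rank 27 (r = 0.90) and *Cd79b* rank 1575 (r = 0.72). Of the progenitor B markers, *Vpreb3* had r = 0.73 and *Igll1* had r = 0.23. *Irf8*, of the class II transcription factors, had rank 104 (r = 0.88). The 95th percentile of r over these genes was 0.85. Reads may have been shared between *H2-DMb2* and its paralog *H2-DMb1*, which is a member. All points share the scaling and composition of their library, and no test is given.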

How the data were processed

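Total RNA of bone marrow cells from 24 mice was sequenced (DNBSEQ-G400, MGIEasy RNA Directional Library Prep Set). Per the labels, the authors aligned reads to mm10 (GRCm38) with STAR 2.6.1 and made gene TPM with RSEM 1.3.1. The deposited TPM were used as they are, and symbols, positions and G+C content came from GENCODE M21 by Ensembl ID (54723 of 54752 IDs found). Genes above 1 TPM in at least 1 library (12373) were tested with limma 3.58.1 in R 4.3.3 on log2(TPM + 1), fitting 4 group means to the 24 libraries. The threshold was 0.1 for the Benjamini-Hochberg adjusted p, to which DEGs added a fold change of at least 2. TPM are shares of a library, so a few abundant RNAs move all other values, and TPM from RSEM split reads between close paralogs such as *H2-DMb1* and *H2-DMb2*. No read counts were used, so depth is unknown and no counting interval is given.

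Other settings were a pseudocount of 0.1, no filter, a filter of TPM above 1 in 6 libraries, scaling by the median of ratios, quantile normalization, TPM without 5 small RNAs, removal of each library's trends with G+C content and length, limma with a trend on mean expression, only the compared groups, a threshold of 0.05, a replicate block, and each library left out. The genes named beside the members were fixed ones of each list, up to 4 DEGs per list, and the 8 genes most like the members. Beyond these, *Cd40*, *Cd79b* and *Igll1* were named after their values were seen. The members and lists were chosen with earlier results of these data known. Promoter windows came from RefSeq (GRCm38.p6). 1 marker gene is not reported here by name.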

Additional observations from a re-analysis of the deposited data

Results flagged for a closer look

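Over 28 sets of 6 libraries (7 members in 4 groups), a library was picked out where its gap to the nearest other library, over the range of the group, was above Dixon's 95% critical value. Chance picks out about 1 in 20 such sets. *H2-DMa* in GC-WT mouse 3 was 11.86 TPM, with a gap over range of 0.789 below the other GC-WT mice. That mouse was the lowest of its group in 5 of 7 members. *Ciita* in FL-KO mouse 11 was 2.31 TPM, with a gap over range of 0.795 above the other FL-KO mice, and that mouse was above its group mean in all 7 members.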

How the results depend on the processing

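*Cd74* and *H2-Ab1* kept their direction and their side of the threshold in both genotype comparisons under all 10 other settings and without each library in turn. For flight in WT mice the count of members past the test and lower, 0, became 1 with quantile normalization, 4 without the 5 small RNAs and 2 with the replicate block, where 14.6%, 54.9% and 49.1% of all tested genes were called. For flight in Nrf2-KO mice the count, 4, became 2 with no filter, 0 with median-of-ratios scaling, 0 with quantile normalization, 1 without the 5 small RNAs, 0 with the trends of G+C content and length removed and 2 at an adjusted p under 0.05, but 6 with the compared groups alone (61.7% of all tested genes). Between genotypes on the ground the count, 5, became 3, 3 and 2 with median-of-ratios scaling, quantile normalization and the trends removed (27.9%, 28.2% and 21.4% of all tested genes). It was 7 without the 5 small RNAs (57.5%) and 6 with the compared groups alone (45.6%). In flight the count, 7, became 3, 3 and 2 under the first 3 of these settings (31.2%, 29.3% and 22.3% of all tested genes). Under the others it was 5 to 7, where the share of all tested genes was from 20.8% (no filter) to 51.0% (TPM above 1 in 6 libraries). The DEG of each genotype comparison, *Cd74*, was 0 DEGs with median-of-ratios scaling and 0 with the trends removed. Downregulated DEGs were then 0.509% and 0.364% of all tested genes on the ground, and 3.09% and 1.11% in flight. When single libraries were left out, the counts ranged from 0 to 5 for flight in WT mice and from 1 to 6 for flight in Nrf2-KO mice. The shares of all tested genes then ranged from 22.9% to 58.9% and from 36.4% to 57.7%. Between genotypes the counts ranged from 5 to 6 on the ground (35.6% to 48.5% of all tested genes) and from 5 to 7 in flight (39.6% to 55.7%). Counts of DEGs ranged from 0 to 1 between genotypes on the ground, from 1 to 1 in flight and from 0 to 0 with flight in either genotype. That of the interaction ranged from 0 to 0. The causes were not tested.

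With median-of-ratios scaling, the log2 values that changed sign were for flight in WT mice *H2-Ab1* 0.21, *H2-Eb1* 0.17, *H2-DMa* 0.0365 and *H2-DMb1* 0.0699. For flight in Nrf2-KO mice they were *H2-Aa* 0.28, *H2-Ab1* 0.12, *H2-Eb1* 0.13, *H2-DMa* 0.0121 and *H2-DMb1* 0.0611. Between genotypes on the ground they were *H2-Aa* 0.18 and *H2-Eb1* 0.0647. Between genotypes in flight they were *H2-Aa* 0.12 and *H2-Eb1* 0.0256. With quantile normalization, the log2 values that changed sign were for flight in WT mice *H2-Eb1* 0.0026, *H2-DMa* 0.0035 and *H2-DMb1* 0.0643. For flight in Nrf2-KO mice they were *H2-Aa* 0.15, *H2-Ab1* 0.0361, *H2-Eb1* 0.0308, *H2-DMa* 0.022 and *H2-DMb1* 0.0797. In the interaction they were *H2-Aa* 0.0383, *H2-Ab1* 0.0558, *H2-Eb1* 0.0282, *Cd74* 0.087, *H2-DMa* 0.0185, *H2-DMb1* 0.0154 and *Ciita* 0.0111. With the trends of G+C content and length removed, the log2 values that changed sign were for flight in WT mice *H2-Ab1* 0.0211, *H2-Eb1* 0.0181 and *Ciita* 0.0652. For flight in Nrf2-KO mice they were *H2-Aa* 0.17, *H2-Ab1* 0.0608, *H2-Eb1* 0.0044, *H2-DMa* 0.0285 and *Ciita* 0.20. Between genotypes on the ground they were *H2-Aa* 0.0787 and *Ciita* 0.11. Between genotypes in flight they were *H2-DMa* 0.0482 and *Ciita* 0.25. In the interaction they were *H2-Ab1* 0.0397, *H2-DMa* 0.0825, *H2-DMb1* 0.0656 and *Ciita* 0.14. Without the 5 small RNAs, the log2 values that changed sign were for flight in WT mice *H2-Aa* -0.0219. For flight in Nrf2-KO mice they were *H2-Aa* 0.0285. In the interaction they were *H2-Aa* 0.0504, *H2-Ab1* 0.0313, *H2-Eb1* 0.0774, *H2-DMa* 0.0915, *H2-DMb1* 0.10 and *Ciita* 0.10. With a library left out, the values that changed sign ranged from -0.13 to 0.0704 for *H2-Aa* with flight in WT mice and, in the interaction, from -0.21 to 0.0297 for *H2-Eb1*, from -0.17 to 0.0326 for *H2-DMa*, from -0.14 to 0.0321 for *H2-DMb1* and from -0.14 to 0.12 for *Ciita*. Over all other settings, 52 values changed sign, with or without a change of call. Of those that kept their sign, 37 lost and 15 gained a call, and 260 kept their call.

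Mouse numbers recur in the flight and ground groups of a genotype, but the labels do not say that they mark a shared litter or cage. The correlation of same-numbered mice, after group means were subtracted, was between -0.0265 and 0.26 in WT and between -0.0053 and 0.27 in Nrf2-KO mice, and 1 of 6 and 2 of 6 correlated best with their own number. The replicate block gave 2 members past the test and lower with flight in WT mice, 5 in Nrf2-KO mice and 0 in the interaction. Of all tested genes, 49.1% in WT and 60.5% in Nrf2-KO mice were past the test and lower under the block. The genotype comparisons share no numbers, so no block was fitted there. TPM give no depth, so low genes such as *Ciita* have an unknown counting error.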
